A study of Homo sapiens with 3 samples.

Results

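The genes that build cholesterol and fatty acids were examined in Huh7 cells, an established human hepatoma line, with and without chlorogenic acid (CA), an ester of caffeic and quinic acid found in many plants. The 36 genes were chosen by name as sterol and lipid synthesis genes known to be controlled by the SREBP transcription factors, together with the regulators of those factors and both LXR receptors. The rule that defines them uses no measured value, but the choice of these genes was made with earlier results of these data known. All 36 were on the array, out of 19740 gene symbols, and 45 probes measured them. They fall into 17 genes of sterol synthesis, 8 of sterol sensing and regulation, and 11 of fatty acid synthesis and use.

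The 3 groups were untreated Huh7 cells, Huh7 cells given CA 50 μM and Huh7 cells given CA 100 μM, both doses for 24 h. All were grown in the same serum-containing medium, and total RNA of each group was read on 1 one-colour array. Whether a sample held 1 culture or several is not given in the sources used here. There were no replicates, so no comparison below has a test, and every difference is one between arrays. Both doses were compared with the same untreated array, so their ratios share that array's error. CA 50 μM is called the lower dose and CA 100 μM the higher dose.

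Hepatocytes and hepatoma cells make cholesterol from acetyl-CoA through mevalonate, farnesyl diphosphate, squalene and lanosterol, and make fatty acids from the same precursor. When membrane sterol is low, SCAP carries the SREBP proteins out of the endoplasmic reticulum to be cut, and the released fragments switch on the synthesis genes in the nucleus. INSIG proteins hold SCAP back when sterol is plentiful, and LXR receptors sense oxidised sterols and drive SREBF1.

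The hepatoma label was set against hepatocyte and hepatoma markers, of which 8 of 9 were well above background in untreated cells, 9 at the lower dose and 8 at the higher, with signals up to 109428 intensity units on the untreated array. HNF4A, a defining hepatocyte factor, was not well above background on the untreated and CA 100 μM arrays. Markers of fibroblasts, endothelial cells, leukocytes and basal epithelium reached 649 at most, a value of KRT14 on the CA 100 μM array. By the count used above, 3 of 3 endothelial, 3 of 3 leukocyte, 2 of 3 fibroblast and 1 of 2 basal epithelial markers were well above background in untreated cells. That count does not set the hepatocyte markers apart, and signals of different genes are not on a common scale. Some of them differed between arrays: the log2 ratios to untreated at the lower and higher dose were -1.81 and 1.09 for KRT14, 0.42 and -0.22 for CD68, and 0.47 and 0.27 for VWF. The median of the 7 measured hepatocyte and hepatoma markers was -0.12 and -0.16. The part of these markers in the results was not tested. The CA 100 μM array also stood apart in that 5.71% of its gene spots lay in areas of raised signal, against 0.139% of the untreated array and 0.0881% at the lower dose. On the CA 100 μM array 4 of the 45 probes had a spot in such an area, namely those of HMGCS1 and FASN, the second INSIG2 probe and the dimmer LSS probe.

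Promoter sequence was looked up for the genes, since they are known as a group with shared control elements. Promoter windows from RefSeq (GRCh38.p14, 250 bases before to 50 after each start) were found for 32 of the 36 genes, all but SQLE, FDFT1, ACAT2 and FASN. The letters CCAAT, a binding motif of the factor NF-Y, were present on either strand in 23 of the 32 genes (71.9%), against 39.7% of all 27305 genes of the table. The share was 12 of 14 in sterol synthesis, 4 of 8 in sensing and regulation and 7 of 10 in fatty acid synthesis. Per window, 56.2% of the genes' 48 windows and 34.6% of all 35116 windows held it. The sterol regulatory element letters TCACNCCAC, which do not overlap CCAAT in the case shown, were found in 1 of the 32 genes, SREBF2, against 1.39% of all genes. A match is a description of the letters and not a site, and no match says only that these letters are not in the window.

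The stretches below are those of the 2 genes that passed 1.5-fold at CA 50 μM (MVD and TM7SF2), of 2 bright genes with positive ratios at both doses (HMGCS1 and SCD), and of SREBF2, which holds the sterol element. Only windows with a match were printed. HMGCS1 has 2 windows, of which 1 holds CCAAT and is shown. All stretches lie before the start of the gene and are written 5′ to 3′ on the gene's own strand. Capitals mark CCAAT or its reverse complement ATTGG and, in SREBF2, also the sterol element.
MVD, chr16:88663160-88663262, minus strand: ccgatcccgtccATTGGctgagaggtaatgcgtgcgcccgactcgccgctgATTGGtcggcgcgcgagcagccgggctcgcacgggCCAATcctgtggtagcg
TM7SF2, chr11:65111786-65111814, plus strand: ccccgagcgccgATTGGctggtgtgctgg
HMGCS1, chr5:43313496-43313579, minus strand: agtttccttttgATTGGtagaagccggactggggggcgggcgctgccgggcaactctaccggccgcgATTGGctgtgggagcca
SCD, chr10:100346992-100347063, plus strand: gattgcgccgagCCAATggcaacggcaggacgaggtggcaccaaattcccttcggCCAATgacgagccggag
SREBF2, chr22:41832960-41833015, plus strand: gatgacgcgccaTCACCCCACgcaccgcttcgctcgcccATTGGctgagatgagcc

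In MVD the 3 matches began 159, 120 and 85 bases before the start, the first 2 of them on the opposite strand. TM7SF2 had 1 match, 74 bases before the start. In SREBF2 the sterol element lay 133 bases and the CCAAT match 106 bases before the start. INSIG2, which had negative ratios at both doses, had no match in its windows. CYP51A1 and SCAP, with positive ratios at both doses, had none either. ACACB, IDI1 and FDPS, with negative ratios at both doses, each had a CCAAT match in at least 1 window. A link between the motif and the ratios was not tested.

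The first comparison asked how CA 50 μM differed from untreated cells. Of the 34 genes measured on all arrays, MVD and TM7SF2, both enzymes of sterol synthesis, were at least 1.5-fold higher, and none was at least 1.5-fold lower. The scanning software gives each spot an error, near 10% for these genes. The errors of 2 spots combine to 0.20 on the log2 scale, nearly the same for every gene. By that measure 21 of 34 ratios were within the error. The ratios of all named genes had quartiles of -0.19 and 0.15, and how many of them lay past that error was not counted. Of all named genes 22.8% had a ratio as low as SQLE (-0.21) and 21.1% one as high as SC5D (0.20). The 21 of 34 is therefore not read as a trait of the pathway. HMGCS1, LSS, MVD, TM7SF2, SREBF2, SCAP, ACLY and SCD lay above the 0.20 error, and SQLE, INSIG2, SREBF1, FASN and ACACB below it, each by its brightest probe. The dimmer probes of LSS and SREBF1 had ratios of the opposite sign, -0.07 and 0.39. Genes of sterol synthesis and of fatty acid synthesis were found on both sides.

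The 2 genes make 5.88% of the 34, beside 4.15% of all 14700 named genes measured that were at least 1.5-fold higher. The count of 0 lower stands beside 2.17% of all genes. No member differed by 2-fold or more in either direction, beside 0.973% of all genes. A share of 2 genes in 34 is near the background. The median log2 ratio was -0.02 over the 34 genes and -0.04 over all named genes, and the sign of the former changed with scaling, to 0.04 under cyclic loess. There the median of all named genes was -0.03.

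The second comparison set CA 100 μM against untreated cells. None of the 34 genes was at least 1.5-fold higher, beside 1.65% of the 14640 named genes measured, and none was at least 1.5-fold lower, beside 1.54%. None was 2-fold different, beside 0.656% of all genes. HMGCS1, MVD, TM7SF2, ACLY, SCD and ACSL3 lay above the 0.20 error and INSIG2, FASN and ACACB below it, while 25 lay within it. The median log2 ratio was 0.03, and that of all named genes was -0.03, with quartiles of -0.14 and 0.08. How many of all named genes lay past the 0.20 error was not counted here either.

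The third comparison set the doses against each other. CA 100 μM gave no gene at least 1.5-fold above CA 50 μM, beside 1.4% of the 14666 named genes, and none was at least 1.5-fold lower, beside 1.53%. MVD had a log2 ratio of -0.42 at the higher dose against the lower, and TM7SF2 one of -0.31, both being the genes picked out at the lower dose. ACSL3 had a ratio of 0.38 and SQLE one of 0.29 in the other direction.

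**Figure D1:**
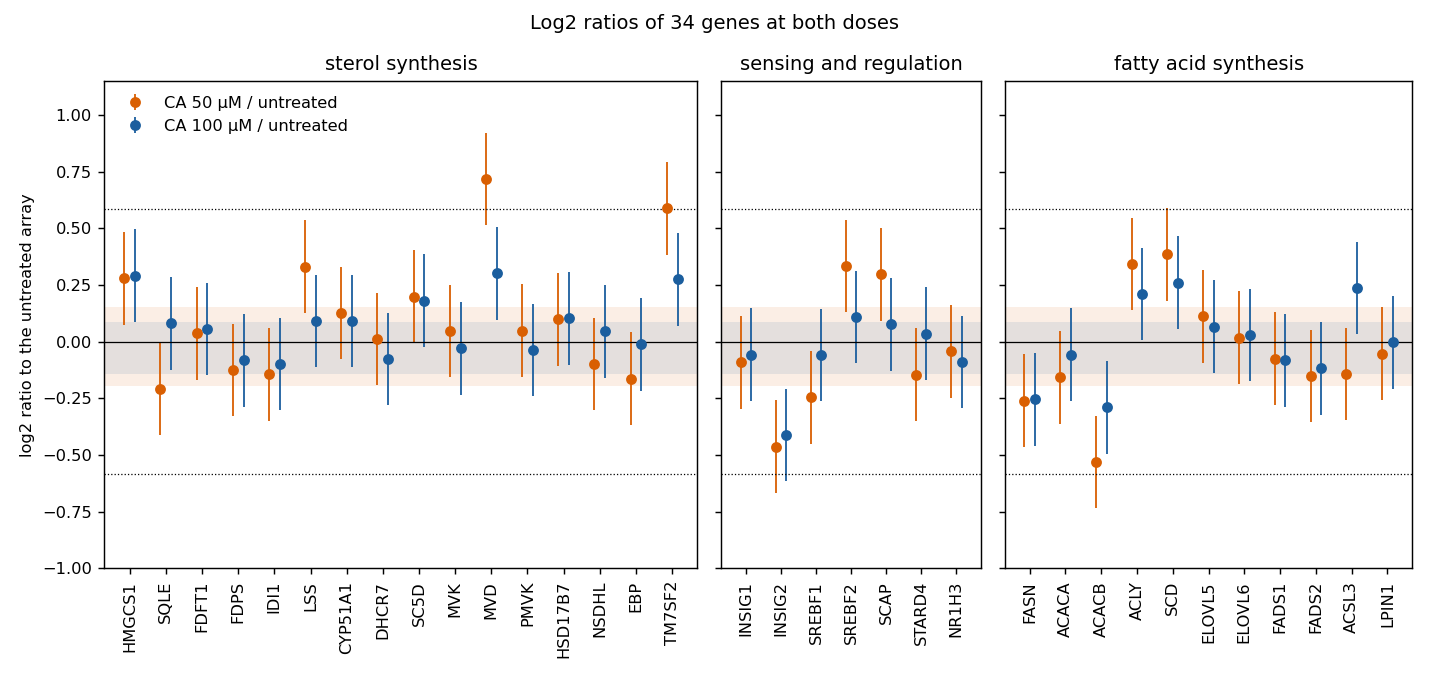
Log2 ratio of each of the 34 measured genes to the untreated array at CA 50 μM (orange) and CA 100 μM (blue), by role. Bars are the error of a ratio, combined from the software's errors of its spots on the 2 arrays. Shaded bands span the quartiles of all named genes in the same colours, and dotted lines mark 1.5-fold. MVD (0.72) and TM7SF2 (0.59) at CA 50 μM are the points past the dotted lines.

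In the values that follow, signals are processed signals scaled to the 75th percentile of the untreated array, in intensity units, so that a gene can be read across the 3 arrays but not against another gene. A ratio is the log2 difference from the untreated array, and the CA 50 μM value is given before the CA 100 μM value. In bulk RNA of this kind, a change in the number of cells of one kind and a change in RNA per cell cannot be told apart.

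Sterol synthesis starts with the thiolase ACAT2, which joins acetyl-CoA units, and the synthase HMGCS1, which adds a further one. HMGCS1 gave signals of 20943 untreated, 25409.6 at CA 50 μM and 25623 at CA 100 μM, with ratios of 0.28 and 0.29. Both treated arrays read higher than the untreated one and were close to each other, but the CA 100 μM spot lay in an area of raised signal and carried a background flag. The ACAT2 spot was marked as an outlier on the untreated and CA 100 μM arrays and had no ratio. With these spots kept, its signals were 11754, 8950.2 and 9881, and its ratios -0.39 and -0.25.

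Mevalonate is then phosphorylated by MVK and PMVK and decarboxylated by MVD to the first isoprenoid unit, which IDI1 isomerises. MVD read 234 untreated, 384 at the lower dose and 288 at the higher. The lower dose was 1.64-fold (log2 0.72) and the higher dose 1.23-fold (log2 0.30) above untreated. Both treated arrays were above the untreated one, and the CA 50 μM array was above the other dose. Among all named genes 2.11% had a ratio as high at the lower dose and 6.69% at the higher. Among genes of the same signal class, of 5 equal classes, these shares were 3.57% and 9.94%. MVD was measured by 1 spot per array. Probes printed as 10 spots differed between spots by a median SD of 0.13 in log2 ratio at the dimmest of 4 levels of signal and of 0.050 at the brightest.

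The neighbouring steps gave smaller ratios. MVK read 1078, 1113 and 1056, with ratios of 0.05 and -0.03. PMVK read 1345, 1391 and 1311, with ratios of 0.05 and -0.04. IDI1 read 9048, 8189 and 8453, with ratios of -0.14 and -0.10. None of these 3 genes left the error range at either dose.

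FDPS makes farnesyl diphosphate, FDFT1 couples it to squalene, and SQLE and LSS oxidise and close squalene into lanosterol. FDPS read 27124, 24882 and 25612, with ratios of -0.12 and -0.08. FDFT1 read 7604, 7801 and 7903, with ratios of 0.04 and 0.06, its untreated spot carrying a background flag. Neither left the error range. SQLE, a rate-controlling oxygenase, read 8916, 7717 and 9428, with ratios of -0.21 and 0.08, so that the untreated array lay between the doses. The brighter LSS probe read 3262, 4102 and 3473, with ratios of 0.33 and 0.09. The dimmer LSS probe read 507, 482 and 472, with ratios of -0.07 and -0.10. The LSS probes thus gave ratios of opposite sign at both doses.

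Lanosterol is turned into cholesterol by demethylation, reductions and shifts of double bonds. CYP51A1, the lanosterol demethylase, read 9110.0, 9949.5 and 9697, with ratios of 0.13 and 0.09. TM7SF2, a sterol reductase that acts on its product, read 191, 288 and 232, just past 1.5-fold at the lower dose (log2 0.59) and 1.21-fold above untreated at the higher (log2 0.28). Its probe was printed as 10 spots, so the error within an array is known. The spots ranged from 183 to 198 untreated, from 277 to 294 at the lower dose and from 219.8 to 240.4 at the higher, and the 3 ranges did not overlap. How many other probes printed as 10 spots had separate ranges was not counted, so this does not set TM7SF2 apart. The ratio varied between spots by an SD of 0.056 for the lower dose and 0.030 for the higher, which is the spread of spots of 1 RNA sample and not of cultures. Among all named genes 4.10% had a ratio as high at the lower dose and 7.65% at the higher. Among genes of the same signal class these shares were 6.70% and 11.5%.

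**Figure D2:**
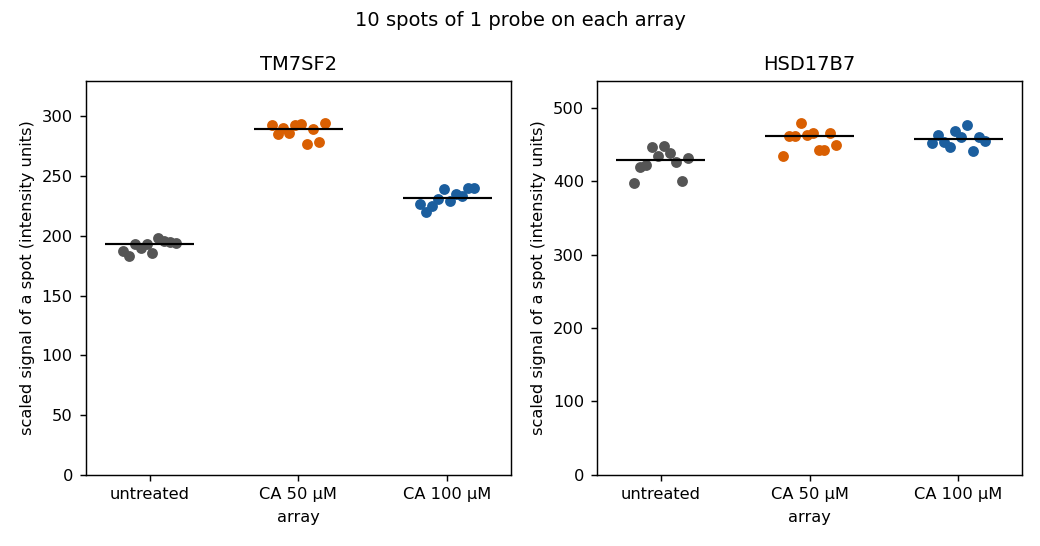
Scaled signal (intensity units, axis from 0) of each of the 10 spots of the TM7SF2 probe (left) and the 10-spot HSD17B7 probe (right) on each of the 3 arrays, with a line at the median. The TM7SF2 spots form 3 separate ranges, at 183 to 198, 277 to 294 and 219.8 to 240.4, while the HSD17B7 ranges overlap. How many other 10-spot probes have separate ranges was not counted.

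NSDHL and HSD17B7 remove the methyl groups and reduce the resulting ketone. NSDHL read 4312, 4026 and 4449, with ratios of -0.10 and 0.05. The 10-spot HSD17B7 probe read 426, 456 and 458, with ratios of 0.10 and 0.10. Its spots ranged from 397 to 448 untreated, from 434 to 479 at the lower dose and from 441 to 477 at the higher, and these ranges overlapped. Both other HSD17B7 probes gave ratios of 0.05 and 0.25 at the lower dose and of -0.12 and 0.14 at the higher. HSD17B7 has a near-identical pseudogene copy, so its values may hold signal of that copy.

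The last steps are those of EBP, an isomerase, SC5D, a desaturase, and DHCR7, the final reductase. EBP read 13153, 11750.4 and 13049, with ratios of -0.16 and -0.01. SC5D read 429, 493 and 487, with ratios of 0.20 and 0.18. DHCR7 read 13356, 13465 and 12669.6, with ratios of 0.01 and -0.08. All 6 ratios lay within the error range.

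Over the 16 measured genes of sterol synthesis, 11 ratios were above 0 at the lower dose and 10 at the higher. Of all named genes 43.7% were above 0 at the lower dose and 42.3% at the higher. The median was 0.05 at the lower dose, but -0.002 when each array was centred on its median, and 0.07 at the higher. Centring shifted all genes alike and moved the median of all named genes at the lower dose from -0.04 to -0.09. Bright probes read lower on both treated arrays in general: in the brightest of the 5 signal classes the median ratio of named genes was -0.11 for the lower dose and -0.06 for the higher, and 18 of the 34 genes fell in that class. Set against the median of all genes in their own class, 12 of the 16 genes were above it at the lower dose and 11 at the higher, with median differences of 0.12 and 0.11. For the 11 genes of fatty acid synthesis these counts were 5 and 7, with median differences of -0.04 and 0.01, and for the 7 regulators 4 and 5, with 0.01 and 0.00. For 22 other sterol genes, taken from lists described below, the count was 13 at each dose, with 0.04 and 0.01. For 24 other fatty acid and glycerolipid genes the counts were 15 and 13, with 0.11 and 0.01.

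**Figure D3:**
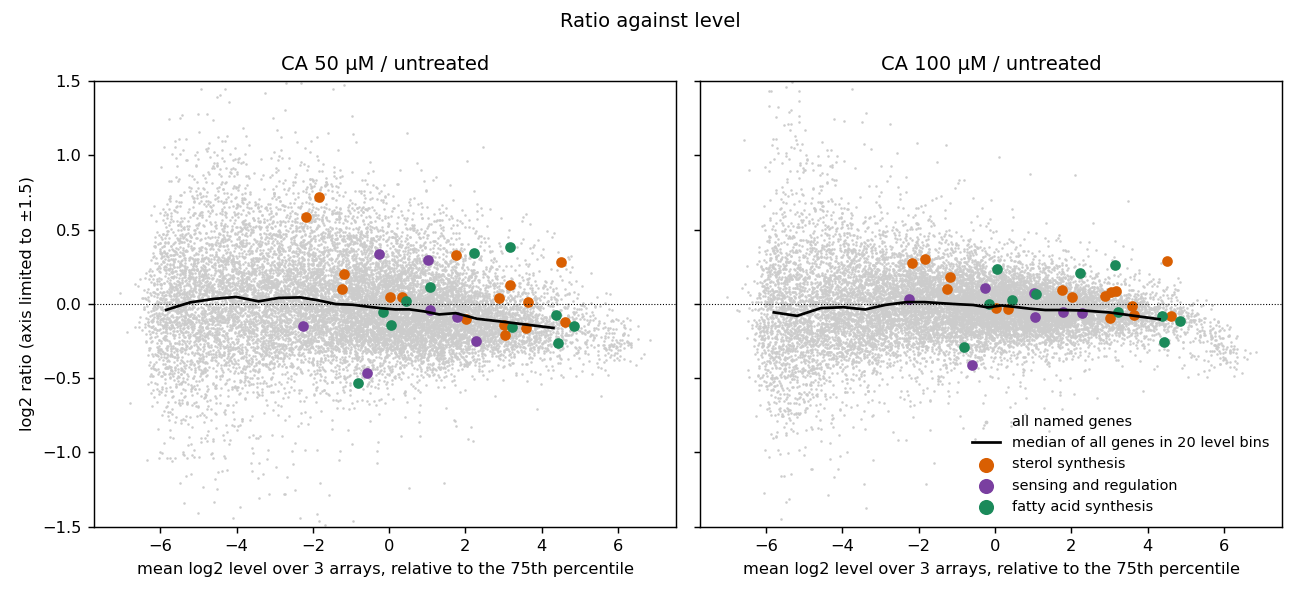
Log2 ratio to the untreated array (vertical axis, limited to ±1.5) against the mean log2 level over the 3 arrays relative to the 75th percentile, at CA 50 μM (left) and CA 100 μM (right), for all named genes (grey) and the 34 measured genes by role (colours). The black line, the median of all genes in 20 bins of level, bends below 0 at the bright end, where 18 of the 34 genes lie in the brightest of 5 signal classes.

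Among the regulators, SREBF2 encodes the SREBP that acts mainly on sterol genes and SREBF1 the one that acts mainly on fatty acid genes. SREBF2 read 800.2, 1009 and 863, with ratios of 0.33 and 0.11. SCAP, the escort of both, read 1969, 2419 and 2076, with ratios of 0.30 and 0.08. In both genes the CA 50 μM array was the highest of the 3. The brighter SREBF1 probe read 5489, 4628 and 5266, with ratios of -0.25 and -0.06. The dimmer one read 393, 514 and 414, with ratios of 0.39 and 0.07. The SREBF1 probes gave opposite signs at both doses, and no direction is given for this gene.

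INSIG1 and INSIG2 retain SCAP in the endoplasmic reticulum. INSIG1 read 3768, 3536 and 3620.0, with ratios of -0.09 and -0.06. INSIG2 read 860.4, 624 and 647 with its brighter probe, 1.38-fold and 1.33-fold lower than untreated (log2 -0.46 and -0.41). Its second probe read 639.8, 453 and 507, with ratios of -0.50 and -0.34. On both probes both treated arrays lay below the untreated one, although neither reached 1.5-fold, and the CA 100 μM spot of the second probe lay in an area of raised signal. Among all named genes 4.2% had a ratio as low as that of the brighter probe at the lower dose and 3.72% at the higher.

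STARD4, a carrier of free cholesterol between membranes, read 227, 205 and 232, with ratios of -0.15 and 0.04. NR1H3, which encodes the LXR of liver and macrophages, read 2277, 2211 and 2139.6, with ratios of -0.04 and -0.09. Neither left the error range. NR1H2, which encodes the broadly expressed LXR, was well above background on the CA 50 μM array alone, at 21.8, and read 2.70 untreated and 8.15 at CA 100 μM. The CA 50 μM signal was at least 1.79-fold above the untreated one and at least 1.73-fold above that of the higher dose, where the dim arrays are set at their lowest probe well above background. This rests on 1 dim spot per array, and the bounds leave out the software error of the CA 50 μM spot, 14.9%. How many of all genes had such a bound was not counted. Over the 7 measured regulators the median ratio was -0.09 for the lower dose and -0.06 for the higher, the latter 0.01 when the probes of a gene were averaged.

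**Figure D4:**
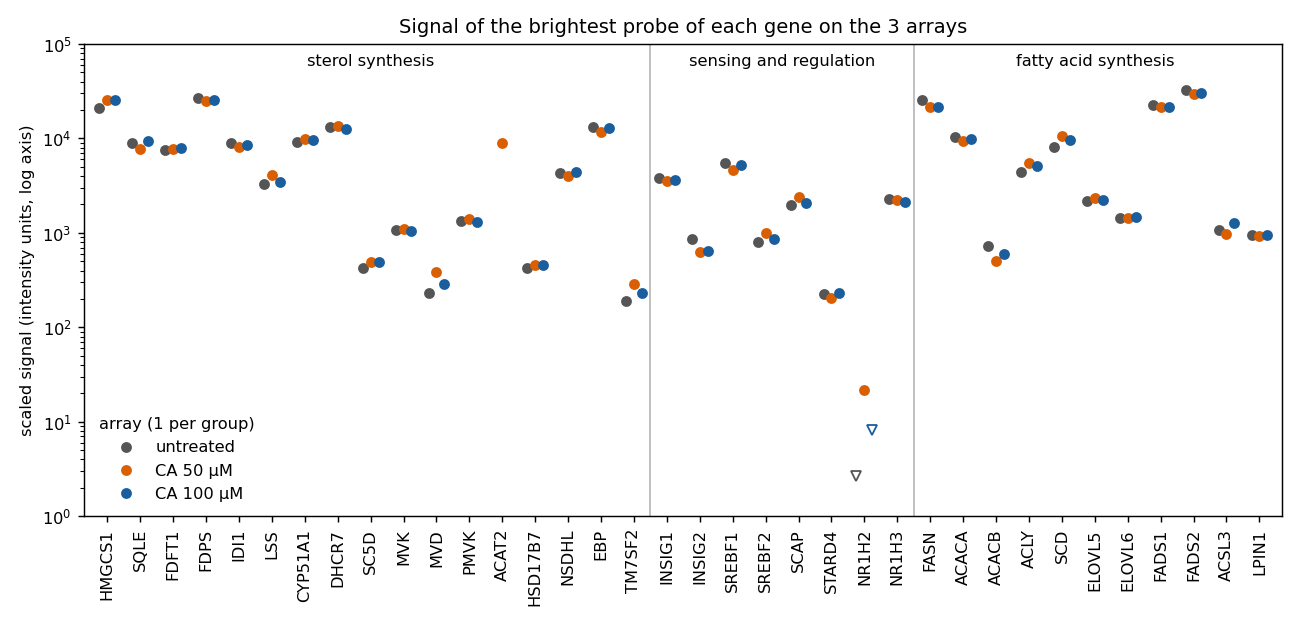
Scaled signal (intensity units, log axis) of the brightest probe of each of the 36 genes on the untreated (grey), CA 50 μM (orange) and CA 100 μM (blue) arrays, 1 array per group, by role. Open triangles are signals not well above background, seen for NR1H2 on the untreated and CA 100 μM arrays, and ACAT2 has a point at CA 50 μM only because its other spots were marked as outliers.

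Fatty acid synthesis draws its acetyl-CoA from citrate through ACLY, and the carboxylases ACACA and ACACB make malonyl-CoA from it. ACLY read 4383, 5562 and 5068, with ratios of 0.34 and 0.21. The brighter ACACA probe read 10385, 9310.1 and 9981, with ratios of -0.16 and -0.06, and the dimmer one had ratios of 0.04 and 0.12. ACACB, whose malonyl-CoA restrains fatty acid oxidation at mitochondria, read 729, 505 and 596, 1.44-fold and 1.22-fold lower than untreated (log2 -0.53 and -0.29). Both treated arrays were thus higher than untreated for ACLY and lower for ACACB. Among all named genes 2.90% had a ratio as low as ACACB at the lower dose and 8.48% at the higher. The second ACACB probe was not well above background on any array.

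FASN builds palmitate, and SCD, ELOVL5, ELOVL6, FADS1 and FADS2 desaturate and lengthen fatty acids. FASN read 25467, 21268 and 21348, with ratios of -0.26 and -0.25, its CA 100 μM spot lying in an area of raised signal. SCD, the desaturase that makes oleate, read 8134, 10624 and 9742, with ratios of 0.39 and 0.26. SCD was higher than untreated on both treated arrays and FASN lower. In the brightest signal class of named genes, which holds both, 2.31% of genes had a ratio as high as SCD at the lower dose and 1.37% at the higher, while 16.9% and 6.76% had one as low as FASN.

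The polyunsaturated desaturases FADS1 and FADS2 gave ratios near 0. FADS1 read 22669.8, 21527 and 21402, with ratios of -0.07 and -0.08, its CA 50 μM spot carrying a background flag. FADS2 read 32581, 29329.7 and 30028, with ratios of -0.15 and -0.12. The signs of both genes turned positive under cyclic loess at CA 50 μM. The elongase ELOVL6 read 1431, 1449 and 1460.2, with ratios of 0.02 and 0.03. The brighter ELOVL5 probe read 2153, 2327 and 2254, with ratios of 0.11 and 0.07, and the dimmer one had ratios of -0.09 and 0.00. None of FADS1, FADS2, ELOVL5 and ELOVL6 left the error range.

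ACSL3 activates long fatty acids for use in lipid droplets, and LPIN1 is a phosphatidate phosphatase of triglyceride synthesis. ACSL3 read 1081, 979 and 1274, with ratios of -0.14 and 0.24, so that the untreated array lay between the doses. The brighter LPIN1 probe read 961, 926 and 958, with ratios of -0.05 and -0.00. The dimmer one read 30.3, 43.4 and 29.3, with ratios of 0.52 and -0.05. The LPIN1 probes differed by 0.57 at CA 50 μM, and no direction is given for it there. Over the 11 genes of fatty acid synthesis the median ratio was -0.07 at the lower dose, but 0.002 under cyclic loess, and -0.00 at the higher, but 0.03 when the probes of a gene were averaged. The median of all named genes was -0.03 under cyclic loess at the lower dose and -0.01 with averaged probes at the higher.

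Of the 8 genes with more than 1 probe, 7 had at least 2 measured probes. The probes of a gene gave opposite signs in 5 of these 7 at the lower dose and in 4 at the higher. How often this happened over all genes with more than 1 probe was not counted, so it is not read as a trait of these genes. The INSIG2 probes both lay below 0 by more than the error at both doses.

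Further genes of the pathways were taken from lists. Of 25 other sterol genes, for further synthesis, uptake, efflux and SREBP processing, 22 were measured against untreated and none was 1.5-fold different at either dose, beside the same shares of all named genes as given above, with median ratios of -0.01 and -0.03. Of 25 other fatty acid and glycerolipid genes 24 were measured, with medians of 0.03 and -0.03. At CA 50 μM 3 of these 24 (12.5%) were at least 1.5-fold higher, beside 4.15% of all named genes, and none was lower, beside 2.17%. At CA 100 μM none passed in either direction, beside 1.65% higher and 1.54% lower of all named genes. TECR, the reductase of very long fatty acid elongation, read 923, 1614 and 1199, with ratios of 0.81 and 0.38. SLC25A1, the mitochondrial citrate carrier that supplies ACLY, read 1238, 1964 and 1549, with ratios of 0.67 and 0.32. DGAT2, which makes triglyceride, read 190.5, 294 and 248, with ratios of 0.63 and 0.38. TECR passed 1.5-fold at the lower dose in all 13 settings, SLC25A1 in 12 (not under normexp) and DGAT2 in 8, and DGAT2 did not pass under quantile normalization, cyclic loess, median centring, normexp or the deposited log2 table, with a lowest ratio of 0.50. A setting that leaves the value of a gene unchanged counts as a pass in these tallies.

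**Figure D5:**
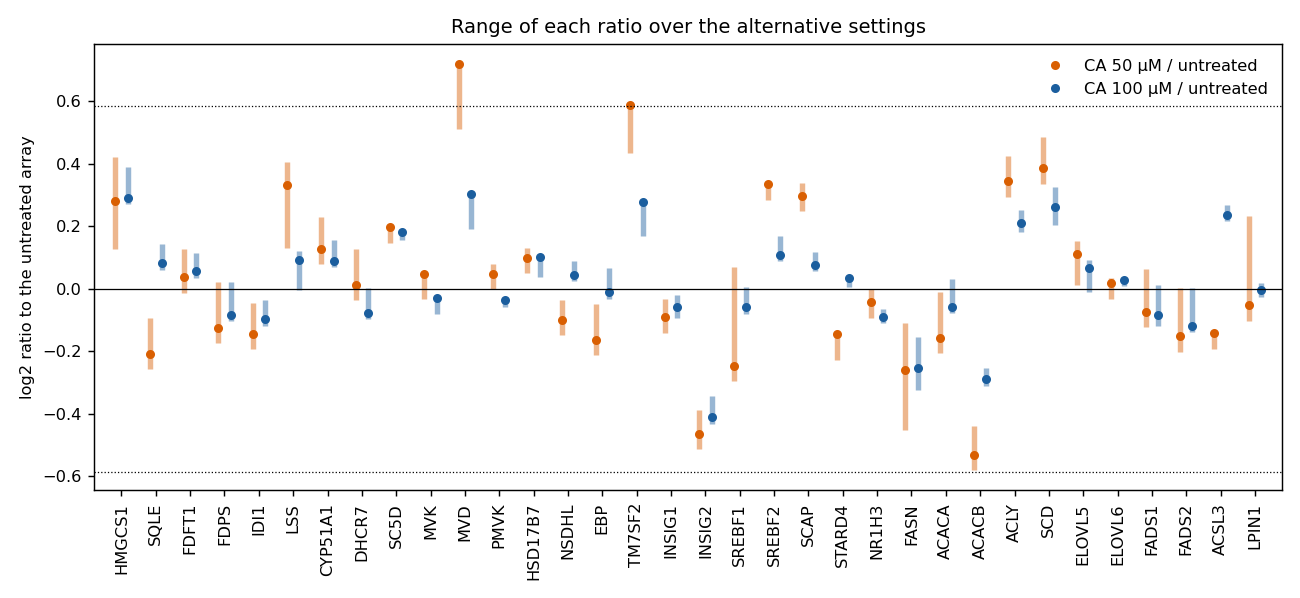
Log2 ratio to the untreated array of each of the 34 measured genes at CA 50 μM (orange) and CA 100 μM (blue), with bars for the range over the main and 12 alternative settings and dotted lines at 1.5-fold. The bars of MVD and TM7SF2 at CA 50 μM reach below the dotted line, to 0.51 and 0.44, and those of INSIG2, ACACB, SCD and ACLY stay on 1 side of 0 at both doses.

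The sign of a ratio was kept over the main and all 12 alternative settings in 23 of 34 genes at CA 50 μM, 12 above 0 and 11 below it, and in 24 at CA 100 μM, 16 above and 8 below. The MVD ratio at CA 50 μM ranged from 0.51 to 0.72 and passed 1.5-fold in 12 of 13 settings, the exception being normexp background correction. The TM7SF2 ratio ranged from 0.44 to 0.59 and passed in 8 of 13, and not under quantile normalization, cyclic loess, median centring, normexp or the log2 table the authors deposited. In those 8 settings the TM7SF2 ratio was the main value of 0.59 each time, because they did not change it. TM7SF2 thus passed in none of the settings that moved its ratio. The same 8 settings left MVD at 0.72, so such passes are not separate checks.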

How the data were processed

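Total RNA of untreated, CA 50 μM and CA 100 μM Huh7 cells was hybridised to 1 Agilent one-colour array per group, and groups follow the treatment labels. Feature Extraction 11.0.1.1 was used by the authors on the scanned images. The deposited intensity values are background-subtracted and detrended processed signals, not scaled between arrays. The authors also deposited a log2 table per probe, with the method not given in the sources used here, which served as an alternative (its 3 columns share a median of 6.23 and follow the log2 processed signal).

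Here, each array's 75th percentile of gene spots was subtracted from the log2 processed signal, without spots flagged as outliers (429, 569 and 596 of 43118). Probes printed as 10 spots were averaged. A probe was well above background where at least 50% of its spots were, and a gene was read by its brightest probe well above background on both arrays. Probes were named through RefSeq accessions. A difference of at least 1.5-fold was counted, without a test. Areas of raised signal on an array were found with windows of 17 rows and 7 columns. Only spots well above background on neither of the other arrays were counted. At least 5 of these spots in a window, and at least 25% of them, had to be well above background and at least 4-fold brighter on that array.

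The genes, lists and rules were chosen with earlier results of these data known. All 36 genes are named, and other pathway genes only where 1.5-fold different from untreated at either dose. The 12 alternatives are given in the closing section. Normexp (offset 50) used the deposited median intensity of spot and background. The steps were tested on simulated data. No coordinates of probes are given. Some genes of the further lists are not reported here. Tools were Python 3.11.15, pandas 2.3.3, numpy 2.4.6, limma 3.58.1 and R 4.3.3. The number of arrays limits the precision.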

Additional observations from a re-analysis of the deposited data

Results flagged for a closer look

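ACSL3 read lower than untreated at CA 50 μM, with a log2 ratio of -0.14, and higher at CA 100 μM, with 0.24. It is given here because its ratios had opposite signs at the doses and both exceeded 2 times 0.065, the median SD between spots of a log2 ratio. Other genes with opposite signs, such as SQLE, did not exceed it at both doses. The ratio of -0.14 lay within the 0.20 error combined from the scanning software's spot errors. The difference was not tested, and both ratios share the untreated array.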

How the results depend on the processing

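The 12 alternatives were quantile normalization, cyclic loess, median centring, normexp, the deposited log2 table, a filter on 1 array, no filter, leaving out saturated spots, the mean over probes, leaving out areas of raised signal, leaving out spots with background flags and, chosen after seeing the data, keeping outlier spots. The 2 genes past 1.5-fold at CA 50 μM became 1 under quantile normalization, cyclic loess, median centring and the deposited table, 0 under normexp, and 3, with NR1H2 added, with a filter on 1 array and with no filter. The fatty acid synthesis median at CA 50 μM became 0.0024 under cyclic loess. With no filter 1 gene, NR1H2, passed 1.5-fold upwards from untreated at CA 100 μM, and NR1H2 was the 1 gene at least 1.5-fold lower at CA 100 μM than at CA 50 μM with a filter on 1 array and with no filter. The cause of these differences was not tested, except that the filters admit NR1H2 by construction. Across the 68 gene ratios to untreated, the sign changed in 0 to 8 per alternative. Without areas of raised signal HMGCS1 and FASN had no value at CA 100 μM. No paired analysis was possible because each group had 1 array, and no replicate could be left out for the same reason. With 1 array per group, the spread between cultures is unknown.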
